A study of Mus musculus with 2 samples.

Results

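The genes described here encode STAT transcription factors, which carry cytokine signals from the receptor to the nucleus, and the feedback genes that those signals switch on. They are Stat3, Stat4, Stat5a, Stat5b, Stat6, Socs1, Socs2, Socs3, Cish and Pim1, chosen by gene symbol, and they make up 10 of the 19505 genes with a named probe set on the array. Each was measured by 1 probe set. They were compared between a single array of Tc1 cells and a single array of Tc9 cells, which are mouse CD8 T cells cultured to make interferon gamma and interleukin 9, respectively. Both cultures started from CD8 T cells of spleen and lymph node, activated through CD3 and CD28, and RNA was taken at day 5. The Tc1 group was polarized for 3 days with 10 ng/mL IL-2. The Tc9 group was polarized for 3 days with IL-4 at 10 ng/mL, TGF-beta at 1 ng/mL and the interferon gamma antibody XMG1.2 at 20 µg/mL. Both groups were then rested for 2 days with IL-2 at 10 ng/mL. Whether the Tc9 polarizing medium also held IL-2 is not stated. The Tc9 array is titled and described as Tc9, but its source name reads Tc1, and it was taken as Tc9 from the title. The labels used here do not state the mouse strain, the age or how many animals were pooled.

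The cytokine receptors that signal through Janus kinases have no enzyme of their own. Binding of the cytokine brings together Janus kinases (JAKs) on the receptor chains, which phosphorylate the receptor and then the STAT proteins, and paired STATs move to the nucleus and bind DNA. In T cells, IL-12 is read mainly through STAT4, IL-4 through STAT6, IL-2 and its relatives through STAT5A and STAT5B, and IL-6, IL-10 and IL-21 largely through STAT3. STATs induce genes of the SOCS family, including Cish, whose proteins block JAKs or receptors and so limit the signal that induced them, and Pim1, a kinase that supports survival and growth. The arrays measure RNA levels. They do not measure STAT phosphorylation, on which STAT activity depends.

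STAT dimers are known to bind palindromes of the form TTCNNNGAA, and STAT6 prefers a spacing of 4 bases between TTC and GAA. Interferon-induced factors of the IRF family bind repeats such as GAAA, any 2 bases and GAAA again. These 3 patterns were searched on both strands in the 250 bases upstream of each annotated start in the RefSeq table of build GRCm38.p6, which held 13 windows for 9 of the 10 genes and none for Socs2. TTCNNNGAA was found in 1 of the 13 windows, that of Socs3, and in 7.02% of all 32851 windows of the same length. The pattern with 4 bases between TTC and GAA was found in none of the 13, and in 5.85% of all windows. The GAAA repeat was found in 2 of the 13, those of Socs1 and of the downstream of the 2 Stat4 starts, and in 2.98% of all windows. The 3 windows with a match are printed 5′ to 3′ on the gene's strand, ending at the base before the start, with the matched letters in capitals, because Socs1, Socs3 and Stat4 are a feedback gene that was higher in Tc9 cells, a feedback gene that was lower and the STAT factor of the 10 that differed most.
Socs1, chr16:10785537-10785786, minus strand: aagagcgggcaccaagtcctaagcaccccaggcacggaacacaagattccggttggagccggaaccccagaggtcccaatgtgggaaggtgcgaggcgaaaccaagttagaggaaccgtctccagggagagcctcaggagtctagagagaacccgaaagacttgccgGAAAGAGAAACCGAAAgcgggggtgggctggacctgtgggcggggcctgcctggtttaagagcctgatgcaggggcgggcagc
Socs3, chr11:117969367-117969616, minus strand: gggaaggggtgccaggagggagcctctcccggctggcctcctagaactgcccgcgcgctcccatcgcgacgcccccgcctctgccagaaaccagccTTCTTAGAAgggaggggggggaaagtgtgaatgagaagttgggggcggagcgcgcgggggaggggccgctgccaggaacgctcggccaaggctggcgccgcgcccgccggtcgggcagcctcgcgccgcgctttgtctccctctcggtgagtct
Stat4, chr1:52007990-52008239, plus strand: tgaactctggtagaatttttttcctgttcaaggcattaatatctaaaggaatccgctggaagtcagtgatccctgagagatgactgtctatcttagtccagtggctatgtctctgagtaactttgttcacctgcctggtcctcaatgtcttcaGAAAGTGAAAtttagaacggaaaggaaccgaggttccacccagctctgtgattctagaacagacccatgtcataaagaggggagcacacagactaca
The capitals in Socs1 are 2 overlapping GAAA repeats, the first beginning 83 bases and the second 77 bases upstream of the start. The match in Socs3 begins 154 bases upstream, and that in Stat4 97 bases upstream. The upstream Stat4 start had no match to any of the 3 patterns. A match is a run of letters and not a measured binding site.

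Signals are log2 of the deposited intensities, and a difference is the log2 signal on the Tc9 array minus that on the Tc1 array. Without replicates no difference has an error or a p-value, and the values describe these 2 arrays only. The number of arrays limits the precision. The median signal of all genes over both arrays, 6.43, served as the detection threshold, and 10147 genes (52.0%) reached it on at least 1 array. All 10 genes were detectable on both arrays, and all 10 lay above 7.16 on both, the 95th percentile of the 5222 negative control probe sets. A size rule of 2-fold was used to describe differences. By this rule 266 detectable genes (2.62%) were higher and 283 (2.79%) lower on the Tc9 array. With each array centred on the median of all its probe sets, an alternative added after the data were seen, these counts became 329 and 229, so the share of higher genes moved from 48.5% to 59.0%. The central 95% of detectable genes differed by -1.04 to 1.02, and the middle of them, from the lower to the upper quartile, by -0.19 to 0.26.

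The STAT and feedback genes differed in both directions between Tc9 and Tc1 cells. Stat4, the factor of IL-12 signalling, was the only one of the 10 that was 2-fold lower on the Tc9 array, and none was 2-fold higher, against 2.79% and 2.62% of all detectable genes. The differences of the 10 genes ran from -1.13 for Stat4 to 0.91 for Socs2, with a median of 0.18, where the median of all detectable genes was 0.05. Of the 10 genes, 6 had a higher and 4 a lower signal on the Tc9 array, against 9858 and 9647 of all 19505 genes. Unlike the 10, those 19505 include 9358 genes below the threshold on both arrays. Of the 10, the higher ones were Socs2, Socs1, Stat5b, Stat5a, Cish and Stat6, and the lower ones were Stat4, Pim1, Socs3 and Stat3. Stat3, Stat6 and Cish lay between the quartiles of all detectable genes, and the other 7 lay outside them. With a rule of 1.5-fold in place of 2-fold, Socs2 and Socs1 counted as higher and Stat4 as lower, so 2 and 1 of the 10 passed, against 7.8% and 6.78% of all detectable genes.

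**Figure D1:**
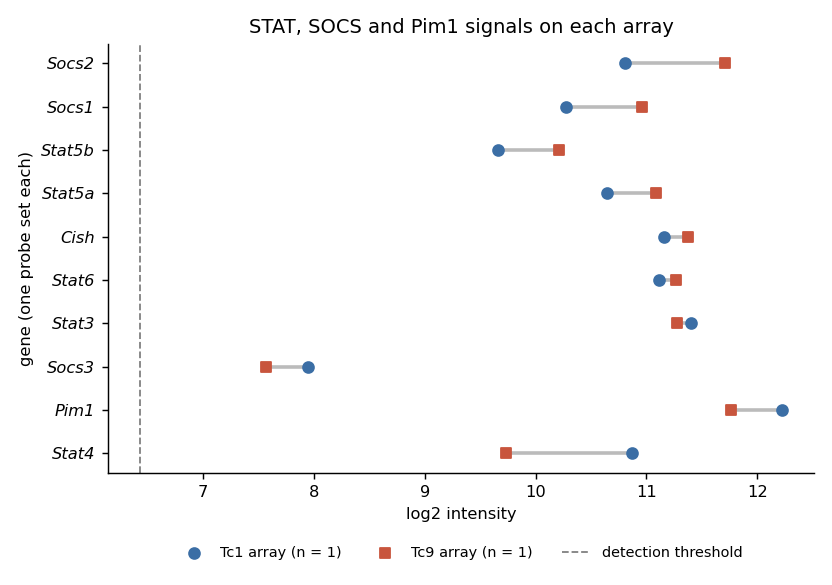
Log2 intensity (x axis) of the 10 genes (y axis, 1 probe set each) on the Tc1 array (blue circles) and the Tc9 array (red squares), ordered by difference, with 1 array per group and no error bars. The dashed line is the detection threshold of 6.43; Stat4 has the widest gap toward Tc1 and Socs2 the widest toward Tc9.

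Among the STAT factors, Stat4 had an intensity of 1869 for Tc1 and 852 for Tc9, or log2 signals of 10.87 and 9.74. It was 2.19-fold lower in Tc9 cells. Of the other detectable genes, 2.18% were as far or farther in that direction. Among the 1000 detectable genes nearest to Stat4 in mean signal, 2.7% had a difference as large in either direction. Stat4 thus lay just past the 2-fold rule and near the edge of the central 95% of genes.

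The pair of STAT5 genes had higher signals on the Tc9 array. These genes encode closely related factors downstream of IL-2, IL-7 and IL-15, and how far their probe sets tell them apart was not tested. Stat5a had intensities of 1603 and 2179 on the Tc1 and Tc9 arrays, log2 signals of 10.65 and 11.09, and was 1.36-fold higher. Stat5b had intensities of 811 and 1184, log2 signals of 9.66 and 10.21, and was 1.46-fold higher. Differences as large in either direction were seen in 14.7% of the 1000 genes nearest in signal to Stat5a and in 10.7% of those nearest to Stat5b, so neither stands far from the general spread.

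Stat3 and Stat6 had nearly the same signal on both arrays. Stat6, the factor through which IL-4 acts, had intensities of 2215 and 2462, log2 signals of 11.11 and 11.27, and was 1.11-fold higher in Tc9 cells, the cells that had received IL-4. Stat3, the main factor of IL-6 and IL-10 signalling, had intensities of 2699 and 2486, log2 signals of 11.40 and 11.28, and was 1.09-fold lower. Differences of this size or larger were seen in 51.2% of the 1000 genes nearest in signal to Stat6 and in 58.5% of those nearest to Stat3. In the RefSeq gene order, Stat5b, Stat5a and Stat3 are consecutive protein-coding genes on chromosome 11, and the differences of these neighbours were 0.55, 0.44 and -0.12.

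Stat2, which acts in the response to type I interferon, was lower by more than Stat4. Its log2 signals were 9.77 for Tc1 and 8.34 for Tc9, a 2.70-fold lower signal in Tc9 cells. Its upstream window held both the STAT pattern with 4 spacer bases, beginning 210 bases from the start, and the GAAA repeat on the opposite strand, beginning 222 bases from it.

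**Figure D2:**
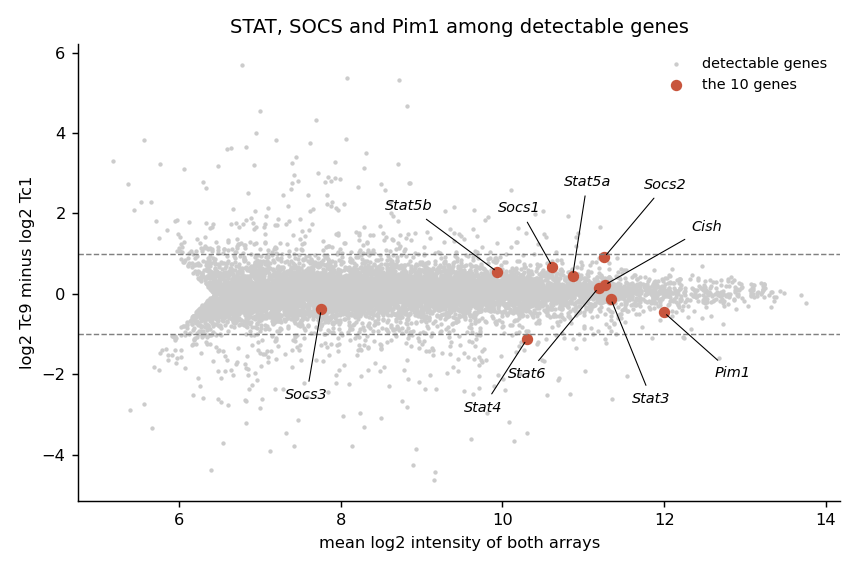
Difference of log2 signals, Tc9 minus Tc1 (y axis), against the mean log2 intensity of both arrays (x axis) for the 10147 detectable genes (grey) and the 10 STAT, SOCS and Pim1 genes (red, named), with 1 array per group. Dashed lines mark 2-fold; Stat4 lies just below the lower line, Socs2 just under the upper one, and the other 8 between the lines.

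Of the feedback genes, Socs2 and Socs1 had higher signals in Tc9 cells, Cish differed little and Socs3 had a lower signal, and none passed 2-fold. Socs2, known as a brake on growth hormone signalling, had intensities of 1788 for Tc1 and 3352 for Tc9, log2 signals of 10.80 and 11.71, and was 1.87-fold higher. Differences as far in that direction were seen in 3.14% of the other detectable genes. Among the 1000 genes nearest to Socs2 in mean signal, 2.6% differed as much in either direction, close to the 2.7% for Stat4. With each array centred on the median of all its probe sets, the difference of Socs2 was 1.02 and passed 2-fold, so its side of the rule depends on the scaling.

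Socs1 inhibits JAKs directly and is known as the main brake on interferon gamma and gamma c cytokine signals in T cells. Its intensities were 1242 and 1986, with log2 signals of 10.28 and 10.96, and it was 1.60-fold higher in Tc9 cells. Of the other detectable genes, 5.77% were as far in that direction, and of the 1000 nearest in mean signal, 6.5% in either. Socs1 and Stat4, whose windows above hold the GAAA repeat, differed in opposite directions.

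Cish binds the activated IL-2 receptor and also restrains T cell receptor signalling. It had intensities of 2279 and 2649, log2 signals of 11.15 and 11.37, and was 1.16-fold higher in Tc9 cells, a difference equalled or passed in either direction by 34.8% of the 1000 genes nearest in signal. Socs3, which binds the IL-6 receptor chain gp130 and is induced by STAT3, had intensities of 247 and 190 and log2 signals of 7.95 and 7.57, and was 1.30-fold lower. A difference as large was seen in 32.1% of the 1000 genes nearest in signal. Both Socs3 signals were under the brightest of the background probe sets named by GC content, which reached 8.53 for Tc1 and 8.65 for Tc9.

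Pim1, a serine-threonine kinase whose gene is a common STAT5 and STAT3 target, had intensities of 4789 and 3482, log2 signals of 12.23 and 11.77, and was 1.38-fold lower in Tc9 cells. Cish, Socs2 and Pim1 are all known to be induced by IL-2 through STAT5, and on these arrays Socs2 and Cish had positive differences and Pim1 a negative one. Of the 1000 genes nearest in signal to Pim1, 9.2% differed as much in either direction.

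Other genes of the same families stayed within 2-fold where they were detectable, apart from Stat2. Of the SOCS genes outside the 10, Socs4 had a difference of 0.15 and Socs7 of 0.24, while Socs5 and Socs6 were below the detection threshold on both arrays. Pim2 had a difference of -0.34, in the same direction as Pim1, and Pim3 of 0.72. Of the Janus kinases, Jak2, used by the interferon gamma and IL-12 receptors, had a difference of 0.64 from log2 signals of 10.28 and 10.93. Jak1, which most of these receptors share, had a difference of 0.32, and Tyk2, the partner kinase of the IL-12 and type I interferon receptors, of -0.10. Tyk2 turned to 0.005 with centring over all probe sets. Jak3 was not analysed here.

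**Figure D3:**
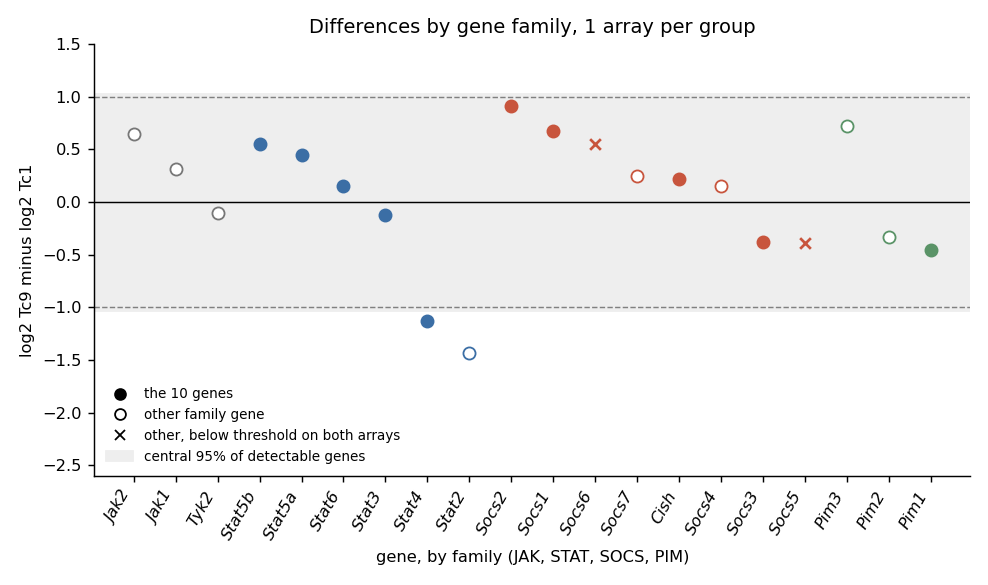
Difference of log2 signals, Tc9 minus Tc1 (y axis), for the measured JAK, STAT, SOCS and PIM genes (x axis), with filled circles for the 10 genes, open circles for other detectable family genes and crosses for genes below the threshold on both arrays. The grey band is the central 95% of detectable genes and the dashed lines mark 2-fold; Stat4 and Stat2 lie below the band and all others within it.

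The receptor chains upstream of these factors included larger differences than the factors themselves. Of 8 measured receptor chains for IL-12, IL-6, IL-10 and IL-27 type cytokines, 1 was at least 2-fold higher and 2 were at least 2-fold lower, with a median difference of -0.36. Il12rb2, the IL-12 receptor chain that recruits STAT4, had log2 signals of 12.66 and 10.05 and was 6.10-fold lower in Tc9 cells. Il12rb1, the chain shared by the IL-12 and IL-23 receptors, had a difference of -0.47. Stat4 and Il12rb2 were thus both past 2-fold in the same direction. Il10ra, the ligand-binding chain of the IL-10 receptor, had log2 signals of 10.74 and 8.69 and was 4.15-fold lower. Il6ra, the IL-6 receptor chain, was the higher one and is given as at least 5.10-fold, since its Tc1 signal of 6.02 was below the threshold.

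A further list held receptor chains of gamma c cytokines, which signal mainly to STAT5 and STAT6 or, for Il21r, largely to STAT3. It also held Il13ra1, which is not a gamma c chain. Of 8 measured, Il15ra, which presents IL-15, was the only one past 2-fold by its measured values, with log2 signals of 7.19 and 5.79. With its dim Tc9 value at the threshold it was lower by at least 1.69-fold and did not pass. Il2ra, the high-affinity IL-2 receptor chain, had a difference of 0.36, Il2rb, which recruits STAT5, of -0.19, and Il4ra, which recruits STAT6, of 0.24. Il2rg was not analysed here. Of the 4 interferon receptor chains, Ifngr2, the signalling chain of the interferon gamma receptor, had log2 signals of 8.63 and 9.92 and was 2.45-fold higher in Tc9 cells, while Ifngr1, Ifnar1 and Ifnar2 had differences of -0.41, -0.39 and -0.24.

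Among the cytokines themselves, 6 of 15 measured STAT-activating ligands were detectable. Ifng was 3.27-fold lower and Osm, which signals through gp130 to STAT3, 2.02-fold lower in Tc9 cells. Il9, which signals through STAT3 and STAT5, had a signal at least 4.07-fold higher, and for Il10 the bound was 1.93-fold. Il2, Il4, Il6 and Il21 were below the threshold on both arrays. Of 17 measured brakes and adaptors outside the SOCS family, which included the PIAS proteins and the phosphatases Ptpn1, Ptpn2, Ptpn6 and Ptpn11, none was 2-fold higher and 2 were 2-fold lower, with a median difference of -0.05. Those 2 were Usp18, an interferon-induced protease that blocks type I interferon signalling, 3.71-fold lower, and Cblb, a ubiquitin ligase that restrains T cell activation, 2.11-fold lower. With centring over all probe sets, Osm, at -0.90, and Cblb, at -0.97, fell short of 2-fold, and Sh2b2, an adaptor, moved from 0.99 to 1.10 and passed it.

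The lists of genes taken as STAT and interferon targets differed in direction from list to list. These lists were written with earlier results of the same arrays known, so they are a description and no measure of STAT activity. Some genes stand in several of them. Their counts use measured values. Of 17 genes listed as IL-4 and STAT6 targets, 13 passed 2-fold upward and none downward, and 11 still passed with dim values at the threshold. The median difference was 2.28, or 1.45 with those dim values. Of those detectable on both arrays, Tmem176b was 9.40-fold, Tmem176a 4.84-fold, the chemokine receptor gene Ccr4 4.20-fold, the transcription factor gene Nfil3 3.06-fold and Batf 2.43-fold higher. The Tc1 signals of Tmem176b, 7.09, and Tmem176a, 7.47, were under the brightest GC background probe set of that array, 8.53. That of Tmem176b was also under the negative control value of 7.16. Il4ra, at 0.24, and Ccl22, at -0.39, were also detectable on both arrays and did not pass 2-fold. Of those dim on the Tc1 array, the chemokine receptor gene Ccr8 was at least 31.1-fold, Il24 at least 11.8-fold, the chitinase-like gene Chil3 at least 9.18-fold and Ccl24 at least 6.03-fold higher, while the bound for Cd200r1 was 1.24-fold. Mrc1, below the threshold on both arrays, stands in this list and also among the monocyte and macrophage markers. Which cells of the cultures gave the signals of the listed genes was not tested. Stat6 itself had a difference of 0.15.

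Of 20 measured interferon target genes, 15 passed 2-fold downward in Tc9 cells and none upward, and 12 still passed with dim values at the threshold. The median difference was -1.63, or -1.15 with those dim values. Of those detectable on both arrays, the GTPase genes Gbp2, Iigp1, Gbp7 and Gbp3 were 12.7-fold, 9.88-fold, 7.87-fold and 5.17-fold lower, and the factor gene Irf1 was 3.99-fold lower. Of those dim on the Tc9 array, the chemokine gene Cxcl9 was at least 3.91-fold and the antiviral gene Isg15 at least 2.24-fold lower, while the bound for Ifit1 was 1.33-fold. Socs1, itself known as an interferon-induced gene, had a difference of 0.68, opposite in sign to 19 of these 20 genes. Stat2 and Usp18, also known as interferon-induced genes, were lower with them.

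Of 11 measured IL-12 and STAT4 targets, 5 passed 2-fold downward and 1 upward by measured values. Once dim values stood at the detection threshold, 4 and 0 passed. The median difference was -0.45 over all, -0.23 with those dim values and -1.65 over the 8 detectable genes by measured values. The 5 were Tbx21, the T-bet factor, 8.30-fold, Il12rb2, Ifng, Gzmb, 3.01-fold, and Prdm1, the Blimp-1 factor, at least 1.79-fold, and the higher one was Il10. The Tc9 signal of Tbx21, 6.50, was just above the threshold and under the negative control value of 7.16. Of 15 measured STAT3 targets, 5 passed 2-fold upward and 1 downward by measured values, and 4 and 0 once dim values stood at that threshold. Their median difference was 0.09 over all, 0.04 with those dim values and 0.48 over the 12 detectable genes by measured values. Ahr was at least 6.57-fold, Maf at least 4.77-fold and Batf 2.43-fold higher, beside Il6ra and Il10, and Prdm1 was the lower one.

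Of 16 STAT5 targets outside the 10 genes, none was 2-fold higher and 4 were 2-fold lower, with a median difference of -0.32. Gzmb, Lta, a TNF family cytokine gene, 2.72-fold, Prf1, the perforin gene, 2.41-fold, and Osm were the 4. The Tc9 signal of Prf1, 7.12, was under the negative control value of 7.16. Several targets of the IL-2 signal were within 2-fold, among them Il2ra, Bcl2 at -0.30, Myc at -0.31 and Ccnd2 at -0.33. Stat5a and Stat5b had positive differences while 14 of these 16 genes had negative ones, where 9647 of all 19505 genes, detectable or not, were negative. Of the 14, Il18r1 was below the threshold on both arrays. Gimap5, at -0.04, turned to 0.06 with centring over all probe sets, which left 13.

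**Figure D4:**
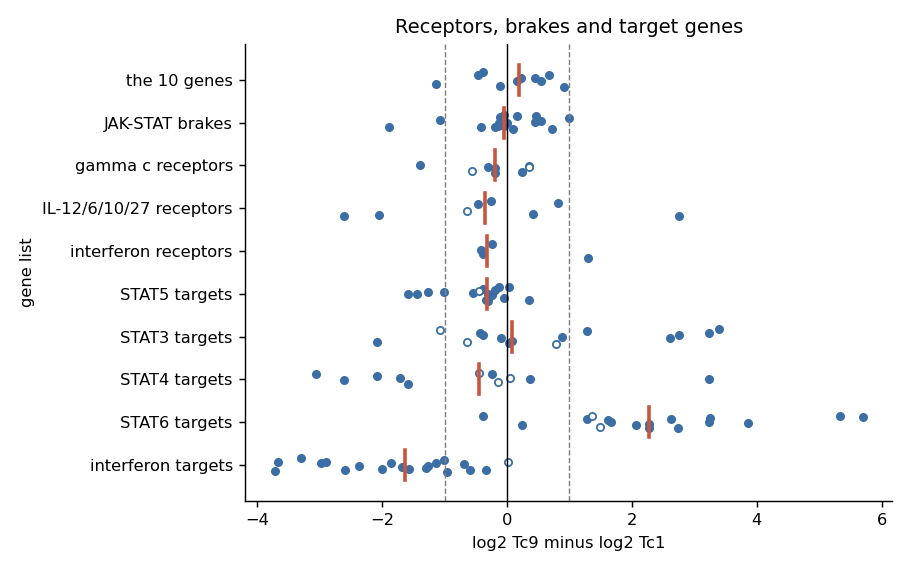
Difference of log2 signals, Tc9 minus Tc1 (x axis), for each gene of the 10, of the JAK-STAT brakes, of the receptor chains and of the target lists (y axis), with filled points for detectable genes, open points for genes below the threshold on both arrays and a red bar at each list's median of measured values. Dashed lines mark 2-fold. The target lists were written with earlier results of these arrays known. The listed STAT6 targets have a median of 2.28 and the interferon targets of -1.63, while the 10 genes have a median of 0.18.

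The cultures were checked against markers. The 9 measured T cell genes, among them Cd8a at 12.19 and 11.93 and Cd3e at 12.92 and 12.80, were all detectable and within 2-fold. Of these, only Cd8a and Cd8b1 encode chains of CD8. Of 3 CD4 T cell markers, Cd4 was detectable at 9.33 and 8.74, a 1.51-fold lower signal on the Tc9 array, Zbtb7b was detectable at 8.03 and 8.38, and Cd40lg was below the threshold on both arrays. B cell genes were also present. All 8 measured B cell markers were detectable on at least 1 array. All had lower signals on the Tc9 array except that Ebf1, at -0.01, turned to 0.10 with centring over all probe sets. Their median difference was -0.43, and their summed intensity was 4629 for Tc1 and 3246 for Tc9. Fcrla, at 6.80 and 5.52, was 2.43-fold lower by measured values, with a bound of 1.30-fold. Both its signals were under the negative control value of 7.16. Ms4a1, Blnk and Pax5 lay under the brightest GC background probe sets on both arrays. Of 8 monocyte and macrophage markers, 4 were detectable, with a summed intensity over the 8 of 1058 and 1009, and Csf1r, Adgre1, Cd14 and Mrc1 were below the threshold on both arrays. Of 4 NK cell markers, none but Kit was detectable. The part of other cells in the differences of Stat4, Socs2 and the other genes was not tested. In such bulk RNA, fewer cells of a type and less RNA per cell cannot be told apart.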

How the data were processed

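Per the labels' protocols, total RNA was taken up in Trizol and carried a biotin label from whole-transcript sense labelling. It was hybridized to Affymetrix arrays, 1 of Tc1 and 1 of Tc9 cells. The deposited values are probe set intensities on a linear scale. How the authors summarized, background-corrected and normalized the probes is not stated in the labels used here. The array medians over all probe sets were 57.2 (Tc1) and 53.1 (Tc9), so log2 of the deposited intensities was used without further normalization.

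Of 28846 probe sets, 19572 had 1 gene symbol, none had several and 9274 had none; all Entrez numbers matched the GRCm38.p6 RefSeq table. This gave 19505 genes. For 55 genes with several probe sets the brighter was used. No build is named for the array, so coordinates belong to RefSeq promoters only. A fold is "at least" where the dimmer array was below the detection threshold, which then replaced that value. Each probe set has its own response, so signals of different genes were not ranked, and genes of like mean signal served only to show the spread of differences at that brightness.

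The members and lists were chosen with earlier results of these data known, and the GAAA repeat and 1 centring alternative were added after values were seen. Named were the 10 genes, the other STAT, SOCS, PIM and JAK genes, the receptor chains of IL-2, IL-4, IL-12 and interferon gamma, and in every other list up to 6 detectable genes past 2-fold. Genes of like signals on both arrays, part of the naming rule, are not given, since levels of different probe sets cannot be compared. Genes named besides these were chosen after their values were seen. Missing genes were not analysed here. Python 3.11.15, numpy 2.4.6, pandas 2.3.3 and matplotlib 3.10.9 were used.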

Additional observations from a re-analysis of the deposited data

How the results depend on the processing

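The differences of the 10 genes were recomputed with quantile normalization, with each array centred on its median over genes or over all probe sets, with an offset of 16, with dim values raised to the threshold and with the mean of several probe sets. Each of the 10 kept its direction under all of these. Stat4 ran from -1.16 to -1.02 and stayed past 2-fold, and Stat3 ran from -0.12 to -0.01. Socs2 ran from 0.90 to 1.02, the last with centring over all probe sets, which shifts every difference by 0.11. Under that centring the number of the 10 genes at least 2-fold higher was 1 instead of 0. With a rule of 1.5-fold it was 2, Socs2 and Socs1, against 791 higher (7.8%) and 688 lower (6.78%) of all detectable genes, and Stat4 was still the only one lower. The counts over the 10 genes and over all genes were otherwise within 1.5 times of those reported, also with the 95th percentile of the negative controls as the threshold. The median of the JAK-STAT brakes turned from -0.05 to 0.02 with centring over genes and to 0.06 over all probe sets. No paired analysis was possible because each group had 1 array, and for the same reason no replicate could be left out. The limit on signal over background touches Socs3 most among the 10 genes.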
